A study of Mus musculus with 12 samples.

Results

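The endoplasmic reticulum (ER) and amino acid stress responses were followed through 43 genes, chosen by name with earlier results of these data known. The genes are ER chaperones, sensors of the unfolded protein response, targets of the transcription factor ATF4, serine synthesis enzymes and tRNA synthetases. All 43 were found by symbol among the 52635 genes of the deposited table, and all 43 were among the 11922 genes that reached 1 FPKM (fragments per kilobase of exon, scaled to library depth) in at least 2 libraries and were tested. They were read as 2 arms. The ER arm held 19 genes, of which 15 encode chaperones and folding factors and 4 are the sensors Ern1, Atf6 and Eif2ak3 and the transcription factor Xbp1. The ATF4 arm held 24 genes: 7 transcription factors and feedback regulators, 4 further targets, 5 serine and one-carbon enzymes and 8 cytosolic tRNA synthetases.

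The unfolded protein response is run by sensors in the ER membrane that are kept idle by the chaperone BiP, the product of Hspa5, and that answer unfolded protein by raising transcription of chaperones, folding enzymes and degradation factors. PERK, one of these sensors, also belongs to the integrated stress response, in which kinases that phosphorylate the initiation factor eIF2 slow general translation while translation of ATF4 increases. ATF4 induces genes of amino acid uptake, serine and asparagine synthesis and tRNA charging. In activated T cells, growth and cytokine secretion place demands on both systems.

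The libraries were RNA-seq of C57BL/6 mouse naive CD4 T cells, over 95% pure per the labels, activated for 24 h through CD3 and CD28 with IL-6, IL-1β, IL-21, IL-23, TNFα and TGF-β1 and with antibodies that block interferon γ and IL-4. The 6 groups of 2 libraries were TG (labelled RARα TG) with 10 nM retinoic acid (RA), TG without RA, KO (labelled RARα KO) with 10 nM RA, KO without RA, WT with 10 nM RA and WT without RA. RA is the ligand of the nuclear receptor RARα, and all groups were grown with charcoal-stripped serum. The labels name neither the promoter of the transgene nor the knockout allele, and give no age. Nothing in them says whether the WT or KO replicates are different animals. The p-values given here describe the spread among these samples, part of which may be technical.

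Rara, the gene of the receptor, had 126 and 119 FPKM in TG with RA and 72.8 and 63.3 in TG without. It had 16.8 and 17.6 FPKM in the libraries labelled KO with RA and 19.5 and 19.3 without, and 12.3 and 14.2 in WT with RA and 16.5 and 18.9 without. TG was above every other library, but the KO label did not go with a lower level than WT, so those libraries are called KO-labelled and directions follow the label only. Xist and Y-linked transcripts marked the WT libraries as male, the KO-labelled as female and TG replicates 1 and 2 as male and female, so KO-labelled against WT cannot be told apart from sex. Depth was estimated from the smallest steps between FPKM values at 16289969 to 25534588 reads a library. The summed FPKM of 7 T-cell markers, all above 0 in every library, was 527 to 591 in TG with RA and 713 to 900 in the other 10 libraries. The lower sum came from Cd5, Cd2 and Cd28, while Cd3e, Cd3d, Cd3g and Cd4 were higher in both TG libraries with RA than in both without, for example Cd3e at 57.4 and 58.1 FPKM, against 34.6 and 30.8. Summed FPKM of 7 dendritic and macrophage markers was 150.5 in WT replicate 2 with RA and 142 in WT replicate 2 without, and 21.8 and 20.1 in the matching replicates 1. In KO-labelled cells it was 77.7 with RA and 74.8 without in replicate 2, and 22.7 with RA and 23.2 without in replicate 1. Summed FPKM of 6 B-cell markers was 24.7 with RA and 22.0 without in WT replicate 2, and 4.36 with RA and 2.999 without in WT replicate 1. The part of these cell types in the results was not tested. Of the 43 genes, 15 share exon bases with another annotated gene, 14 of them with one on the opposite strand. The strand setting of the counting is not given in the sources used here, so their values are uncertain to that extent.

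One library stood apart in the ATF4 arm. In TG without RA, replicate 2 exceeded replicate 1 for 24 of 24 ATF4-arm genes, with a median log2 difference of 0.26, whereas 57.6% of all tested genes were higher in that replicate. In the 5 other groups replicate 2 was the higher one for 8 to 20 of the 24. For RA in TG, member calls that ended without that library are therefore named, and counts without it are given for most of the further lists. Counts of members by role, by promoter element and by separation of libraries include it.

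On group means, TG cells without RA held most of these genes at their highest level. The mean FPKM was highest in TG without RA for 30 of the 43 genes, 13 of 19 in the ER arm and 17 of 24 in the ATF4 arm, while 26.4% of all tested genes had their highest mean there. These means include TG 0 nM replicate 2, and no count was made without it. For some ATF4-arm genes replicate 1 alone lay below another group's mean, as for Atf4 (226 FPKM, against 231 in WT without RA). For others, such as Trib3 (8.66 FPKM, against 4.97 in WT without RA), it lay above. The lowest mean lay in KO-labelled cells with RA for 16 of the 43, in WT with RA for 9 and in TG with RA for 8, while these groups held the lowest mean of 11.2%, 7.37% and 31.7% of all tested genes. The ER arm made up 0.684% and 0.669% of the FPKM total in TG with RA, against 0.717% and 0.744% without. It made up 0.626% and 0.596% in KO-labelled cells with RA, against 0.657% and 0.613% without. In WT the shares were 0.607% and 0.618% with RA, against 0.657% and 0.693% without. In TG and in WT both libraries with RA lay below both without, while those of the KO-labelled cells overlapped. The ATF4 arm took 0.426% and 0.421% of the total in TG with RA, against 0.515% and 0.613% without. Its shares in KO-labelled cells were 0.413% and 0.416% with RA, against 0.444% and 0.448% without. In WT they were 0.416% and 0.452% with RA, against 0.497% and 0.527% without. For the ATF4 arm the libraries with and without RA were separate in all 3 genotypes, and with RA the 6 libraries lay between 0.413% and 0.452%. The share is set mostly by abundant genes, and the median log2 level of the 24 genes did not separate in TG, at 5.27 and 5.24 with RA against 5.18 and 5.26 without. The mean log2 level, which weights the genes equally, did separate, at 4.88 and 4.85 with RA against 5.02 and 5.30 without.

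**Figure D1:**
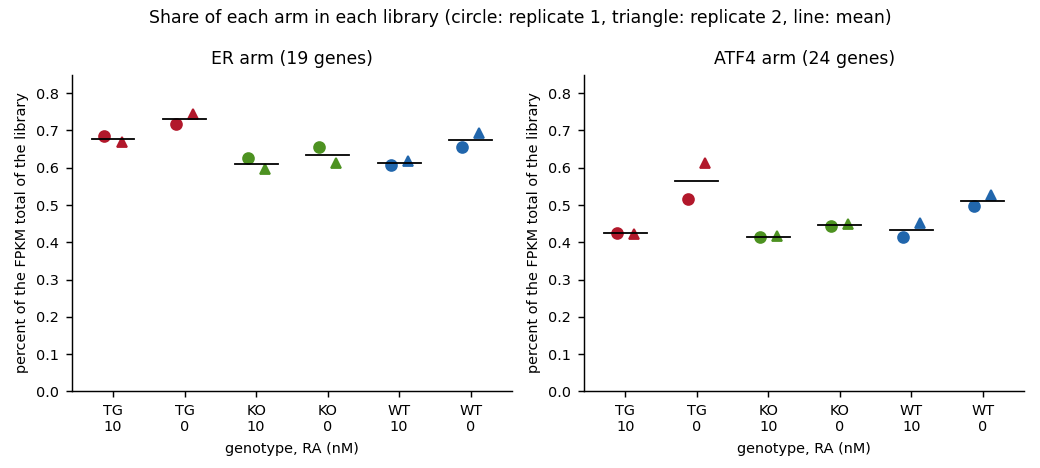
Share of the ER arm (19 genes, left) and the ATF4 arm (24 genes, right) in the FPKM total of each library, in percent, for the 3 genotypes with 10 and 0 nM RA; circles are replicate 1, triangles replicate 2 and lines group means. The ATF4 share was 0.515% and 0.613% in TG without RA, above all other groups but WT without RA, where replicate 2 had 0.527%.

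RA was given to ask what the hormone changes in each genotype. In TG, 4 members rose and 24 fell with RA, while 15 did not pass the test (limma on log2(FPKM + 1), adjusted p under 0.05 over all 11922 tested genes). Fold changes are given as log2 ± SE on that scale, from the fit with 2 libraries in each group. Of all tested genes 39.1% passed in either direction, 19.7% upward and 19.4% downward. Falls were thus more frequent among the members than in the table and rises less so, a description without a test. The members were chosen with earlier results of these data known, so the choice may have shaped this difference. The median log2 fold change was -0.20 for the ER arm and -0.39 for the ATF4 arm, against -0.02 over all tested genes. Without TG 0 nM replicate 2 fewer members fell, but fewer of all tested genes passed as well, so the shares above do not apply to that fit. The calls of Asns, Shmt2, Dnajb11 and Hyou1 ended without that library, and each also ended without at least 1 further TG library, while the other 24 calls held without any 1 of the 4 TG libraries. In WT, 8 members fell, 0 rose and 35 did not pass, where 3.47% of all tested genes fell and 6.67% rose (10.1% together). All 8 were among the 24 that fell in TG. In the KO-labelled libraries 0 of the 43 passed, where 17 of 11922 genes, or 0.143%, passed at all (20 with voom on recovered reads) and 1280 had an unadjusted p under 0.05, among them 6 members. Median log2 fold changes in WT were -0.13 for the ER arm and -0.20 for the ATF4 arm, and in KO-labelled libraries -0.08 and -0.09, with 0.02 and 0.01 over all tested genes.

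**Figure D2:**
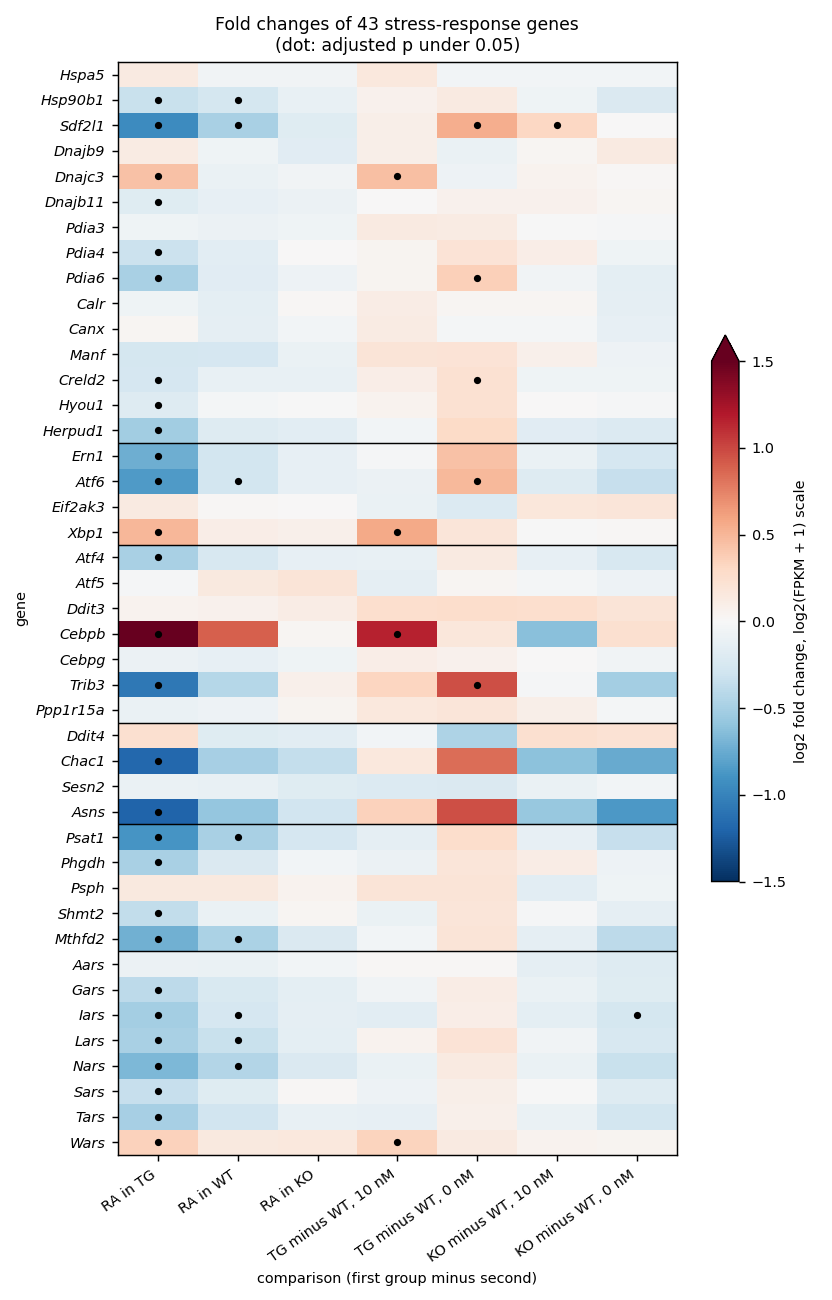
Heatmap of log2 fold changes (log2(FPKM + 1) scale, red higher and blue lower in the first-named group) of the 43 genes, in rows by role, in 7 comparisons, in columns; a dot marks an adjusted p under 0.05. With RA, 24 genes fell and 4 rose in TG, 8 fell in WT, and 0 passed in KO-labelled cells.

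Complete separation of the 2 libraries on each side was frequent in the whole table and is given with that share. With RA in TG, 8 members lay wholly higher and 27 wholly lower, where 33.5% of all genes were separate upward and 37.6% downward (71.1% together). In KO-labelled cells 5 lay higher and 18 lower, where the shares were 24.1% and 18.2% (42.3% together). In WT 4 lay higher and 30 lower, where they were 31.0% and 22.8% (53.8% together). Downward separation was thus more frequent among members than in the table in each genotype. For TG against WT, 24 members lay higher and 4 lower without RA (26.1% and 22.0% of all genes, 48.1% together), and 19 higher and 9 lower with RA (24.5% and 29.9%, 54.4% together). For KO-labelled cells against WT, 4 lay higher and 23 lower without RA (27.6% and 20.1%, 47.7% together), and 6 higher and 11 lower with RA (19.6% and 17.7%, 37.2% together).

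The WT calls rested on few libraries. With 1 WT library left out, fewer of all tested genes passed as well, so the leave-out counts do not by themselves set the members apart. On leaving out replicate 1 at 0 nM, 3 members passed, and on leaving out replicate 2 at that dose, 1 did. Leaving out replicate 1 at 10 nM kept 1 member, and leaving out replicate 2 at 10 nM kept 4. Sdf2l1 was the member that passed in all of these. Upper-quartile scaling gave 9 falls in WT, and over all genes 667 of 1221 WT calls were rises, against 795 of 1209 as deposited.

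Hspa5, which encodes BiP, a widely used marker of ER stress, did not pass the test in any of the 9 comparisons made. It had 245 and 229 FPKM in TG libraries with RA, against 209 and 223 without. For Hspa5, KO-labelled libraries had 216 and 198 FPKM with RA, against 226 and 205 without, and WT libraries 211 and 215 with RA, against 217 and 226 without. In TG both libraries with RA were above both without (0.13 ± 0.07, adjusted p = 0.16), in WT both lay below (-0.06 ± 0.07), and in KO-labelled cells the groups overlapped. Its neighbour in function Hsp90b1, the ER member of the HSP90 chaperones, had 223 and 216 FPKM in TG libraries with RA, against 269 and 287 without. In KO-labelled libraries Hsp90b1 had 206 and 196 FPKM with RA, against 219.6 and 214 without, and in WT libraries 204 and 217 with RA, against 239.9 and 266 without. Hsp90b1 fell in TG (-0.34 ± 0.06, adjusted p = 0.0036) and in WT (-0.26 ± 0.06), with the WT call ending without WT 0 nM replicate 2 or either WT replicate with RA. In all 3 genotypes the libraries with RA lay below those without.

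The largest fall in the ER arm was that of Sdf2l1, a cofactor that keeps ER J-proteins and BiP at work on unfolded substrates. Sdf2l1 had 37.5 and 38.1 FPKM in TG libraries with RA, against 74.2 and 73.4 without. Sdf2l1 was at 42.2 and 46.3 FPKM in KO-labelled libraries with RA, against 50.2 and 50.2 without, and at 34.9 and 36.3 in WT libraries with RA, against 51.5 and 48.9 without. The TG libraries without RA were the highest of all 12, and those with RA were near the WT libraries with RA. The log2 fold change was -0.95 ± 0.05 in TG (adjusted p = 3.5e-06) and -0.48 ± 0.05 in WT (adjusted p = 0.0013), and the fall in TG was larger than that in WT (difference in log2 fold change -0.46 ± 0.07, adjusted p = 0.0079). In KO-labelled cells the change was -0.18 ± 0.05 (adjusted p = 0.28).

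Pdia6, a protein disulphide isomerase, had 105 and 96.7 FPKM in TG libraries with RA, against 141 and 143 without. For Pdia6, KO-labelled libraries had 98.0 and 90.9 FPKM with RA, against 106 and 93.9 without, and WT libraries 94.9 and 101 with RA, against 109 and 111 without. The TG libraries without RA stood clear of every other library, and in TG the level changed by -0.49 ± 0.07 (adjusted p = 0.00082), whereas in WT the change was -0.17 ± 0.07 (adjusted p = 0.18). Creld2, an ER disulphide isomerase-like protein, had 44.8 and 43.2 FPKM in TG libraries with RA, against 51.6 and 53.1 without. In KO-labelled libraries Creld2 had 38.6 and 39.6 FPKM with RA, against 42.9 and 41.9 without, and in WT libraries 39.9 and 42.3 with RA, against 43.3 and 45.8 without. Here too the TG libraries without RA were the highest, with a log2 fold change of -0.25 ± 0.05 in TG (adjusted p = 0.0042).

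Dnajc3, whose product is a J-domain cochaperone that inhibits eIF2 kinases, was the only one of the 15 chaperone and folding genes that rose in TG. It had 55.1 and 53.7 FPKM in TG libraries with RA, against 41.1 and 39.0 without. Dnajc3 was at 45.0 and 37.6 FPKM in KO-labelled libraries with RA, against 45.6 and 40.4 without, and at 40.3 and 38.7 in WT libraries with RA, against 43.4 and 41.3 without. The TG libraries with RA were above all 10 others, and the fold change was 0.43 ± 0.09, adjusted p = 0.0044. In WT it was -0.10 ± 0.09, and the TG minus WT difference in the RA effect was 0.53 ± 0.12, adjusted p = 0.035. This call was lost on leaving out each of the 8 TG and WT libraries in turn (0.50 to 0.57). Of the 15 chaperone and folding genes 8 fell in TG, where 19.4% of all tested genes fell. Pdia4 (-0.33 ± 0.06), Herpud1 (-0.52 ± 0.10), Dnajb11 (-0.18 ± 0.05) and Hyou1 (-0.20 ± 0.06) completed these 8. Herpud1, which serves ER-associated degradation, gave -0.34 without TG 0 nM replicate 2. Manf (-0.26 ± 0.11), Dnajb9 (0.13 ± 0.15), Pdia3 (-0.07 ± 0.06), Calr (-0.06 ± 0.08) and Canx (0.03 ± 0.07) did not pass in TG. Calreticulin, calnexin and Pdia3 form the lectin chaperone cycle for glycoproteins, and their genes were among the most abundant of the arm, at 171 to 346 FPKM over the 12 libraries.

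Promoter sequences are shown for 4 of these genes because they hold an ER stress response element. Hspa5, Hsp90b1 and Dnajc3, which differed in their change with RA, have the same element, ERSE, and Herpud1 has ERSE-II. The element ERSE, made of CCAAT and CCACG with 9 bases between them, is bound by NF-Y and ATF6 and was searched on both strands of RefSeq windows of 250 bases before and 50 from the start site on (build GRCm38.p6). Windows were at hand for 37 of the 43 genes; Atf6, Hyou1, Lars, Manf, Nars and Wars had none. ERSE was present for 7 of the 37, or 18.9%, and for 37 of 27025 genes in all, or 0.137%. ERSE-II, made of ATTGG and CCACG with 1 base between them, was present for Dnajb11 and Herpud1 (5.41%), against 0.0444% of all genes. Stretches of 280 bases are printed 5′ to 3′ on the strand of the gene, with capitals for matches to ERSE, ERSE-II or the ATF4 element given further on.
Hspa5, chr2:34771840-34772119, plus strand: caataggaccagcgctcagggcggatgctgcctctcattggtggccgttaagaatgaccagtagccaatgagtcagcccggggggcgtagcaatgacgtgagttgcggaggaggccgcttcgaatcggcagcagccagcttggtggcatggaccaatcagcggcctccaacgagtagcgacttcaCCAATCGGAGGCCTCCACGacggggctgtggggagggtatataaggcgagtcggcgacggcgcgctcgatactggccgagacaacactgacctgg
Hsp90b1, chr10:86705415-86705694, minus strand: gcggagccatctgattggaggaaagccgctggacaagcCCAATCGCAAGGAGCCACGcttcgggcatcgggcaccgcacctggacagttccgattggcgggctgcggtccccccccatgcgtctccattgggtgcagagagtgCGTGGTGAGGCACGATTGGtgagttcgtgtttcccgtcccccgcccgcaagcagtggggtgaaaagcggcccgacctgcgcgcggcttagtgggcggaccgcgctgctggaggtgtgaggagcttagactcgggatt
Dnajc3, chr14:118937682-118937961, plus strand: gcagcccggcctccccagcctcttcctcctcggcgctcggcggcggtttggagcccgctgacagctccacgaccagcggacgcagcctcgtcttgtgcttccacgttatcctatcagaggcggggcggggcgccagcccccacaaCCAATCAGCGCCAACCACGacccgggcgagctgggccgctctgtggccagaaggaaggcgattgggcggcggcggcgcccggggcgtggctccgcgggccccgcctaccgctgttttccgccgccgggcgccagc
Herpud1, chr8:94386179-94386458, plus strand: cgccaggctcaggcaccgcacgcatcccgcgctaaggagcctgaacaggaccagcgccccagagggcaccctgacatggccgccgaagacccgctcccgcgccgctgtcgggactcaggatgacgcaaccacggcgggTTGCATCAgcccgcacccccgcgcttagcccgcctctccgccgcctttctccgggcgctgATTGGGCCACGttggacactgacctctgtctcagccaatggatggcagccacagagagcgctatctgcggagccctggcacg
The ERSE match lay at -65 to -47 from the start site in Hspa5 and at -105 to -87 in Dnajc3, and Hsp90b1 held 2, at -212 to -194 and -107 to -89. In Herpud1 the ERSE-II match lay at -52 to -42 and an ATF4 element match at -112 to -105. Of the 7 genes with ERSE, 1 rose with RA in TG (Dnajc3), 3 fell (Hsp90b1, Pdia6, Creld2) and 3 did not pass (Hspa5, Calr, Canx). Of the 30 genes with a window but without ERSE, 2 rose, 17 fell and 11 did not pass, so falls were not more frequent with the element. TGACGTGG, the core of an element bound by XBP1 and ATF6, was in 0 of the 37 windows and in 0.714% of all genes. A match describes letters in a window, not a bound site.

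Of the 3 sensor genes, Atf6 and Ern1 fell with RA in TG and Eif2ak3 did not pass. Atf6 encodes a transcription factor that is released from the membrane by cleavage in the Golgi. Its level was 5.66 and 5.41 FPKM in TG libraries with RA, against 10.9 and 10.8 without. For Atf6, KO-labelled libraries had 5.35 and 4.84 FPKM with RA, against 5.38 and 5.85 without, and WT libraries 5.69 and 6.22 with RA, against 7.09 and 7.72 without. The TG libraries without RA were the highest, and with RA all 6 libraries lay between 4.84 and 6.22. Atf6 fell in TG (-0.85 ± 0.07, adjusted p = 3.9e-05) and in WT (-0.27 ± 0.07, adjusted p = 0.047), a call lost on leaving out each WT library in turn (-0.33 to -0.22), and the fall was larger in TG (difference -0.58 ± 0.10, adjusted p = 0.011). Ern1, which encodes the kinase and endonuclease IRE1α that splices Xbp1 mRNA, was a low gene with 1.66 and 1.70 FPKM in TG libraries with RA, against 3.11 and 3.80 without. In KO-labelled libraries Ern1 had 1.69 and 1.38 FPKM with RA, against 1.61 and 1.92 without, and in WT libraries 1.64 and 1.77 with RA, against 2.18 and 2.38 without. It too was highest in TG without RA and fell there with RA (-0.73 ± 0.11, adjusted p = 0.00095), while the WT change of -0.28 ± 0.11 did not pass (adjusted p = 0.15). Eif2ak3, the gene of PERK, had 10.5 and 10.3 FPKM in TG libraries with RA, against 9.74 and 9.06 without. Eif2ak3 was at 13.5 and 11.9 FPKM in KO-labelled libraries with RA, against 13.6 and 11.8 without, and at 11.0 and 11.4 in WT libraries with RA, against 11.1 and 10.9 without. Eif2ak3 passed in no comparison, and its highest libraries were KO-labelled (0.13 ± 0.08 with RA in TG).

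Xbp1 went the other way from Atf6 and Ern1. It had 70.3 and 67.4 FPKM in TG libraries with RA, against 46.9 and 50.1 without. For Xbp1, KO-labelled libraries had 44.5 and 47.3 FPKM with RA, against 43.7 and 43.2 without, and WT libraries 47.2 and 45.0 with RA, against 43.4 and 42.1 without. The TG libraries with RA were above all 10 others, and the rise was 0.50 ± 0.05 (adjusted p = 0.00015), against 0.10 ± 0.05 in WT (adjusted p = 0.26) and 0.08 ± 0.05 in KO-labelled cells. The TG minus WT difference in the RA effect was 0.39 ± 0.07, adjusted p = 0.016, and it did not pass without WT 0 nM replicate 1, WT 10 nM replicate 2 or TG 10 nM replicate 1 (0.35 to 0.44 over all 8). A value for the whole gene does not separate spliced from unspliced Xbp1, and RNA levels show neither cleavage of ATF6 nor translation of ATF4. Xbp1 is also abundant in plasma cells, whose 5 markers summed to 8.44 and 11.2 FPKM in TG with RA, against 4.79 and 4.78 without, 2.16 to 4.52 in KO-labelled and 2.05 to 6.29 in WT libraries. Of these markers, 3 were higher in both TG libraries with RA than in both without, namely Sdc1 (4.34 and 6.06 FPKM, against 2.41 and 2.76), Igha (2.90 and 3.27 FPKM, against 1.54 and 1.25) and Jchain (0.993 and 1.31 FPKM, against 0.624 and 0.513). Mzb1 overlapped, at 0.197 and 0.522 FPKM with RA, against 0.224 and 0.260 without, and Tnfrsf17 was listed at 0 in 11 of 12 libraries. The part of such cells in the Xbp1 result was not tested, and in bulk RNA a change in the number of cells of a type cannot be told apart from a change per cell.

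These genes lie on GRCm38 as follows: Hspa5 (ENSMUSG00000026864, chromosome 2, 34771970 to 34777547), Sdf2l1 (ENSMUSG00000022769, chromosome 16, 17130138 to 17132383), Atf6 (ENSMUSG00000026663, chromosome 1, 170704674 to 170867771), Ern1 (ENSMUSG00000020715, chromosome 11, 106394650 to 106487852), Xbp1 (ENSMUSG00000020484, chromosome 11, 5520659 to 5525893), Atf4 (ENSMUSG00000042406, chromosome 15, 80255184 to 80257541), Trib3 (ENSMUSG00000032715, chromosome 2, 152337422 to 152344032) and Cebpb (ENSMUSG00000056501, chromosome 2, 167688915 to 167690418).

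**Figure D3:**
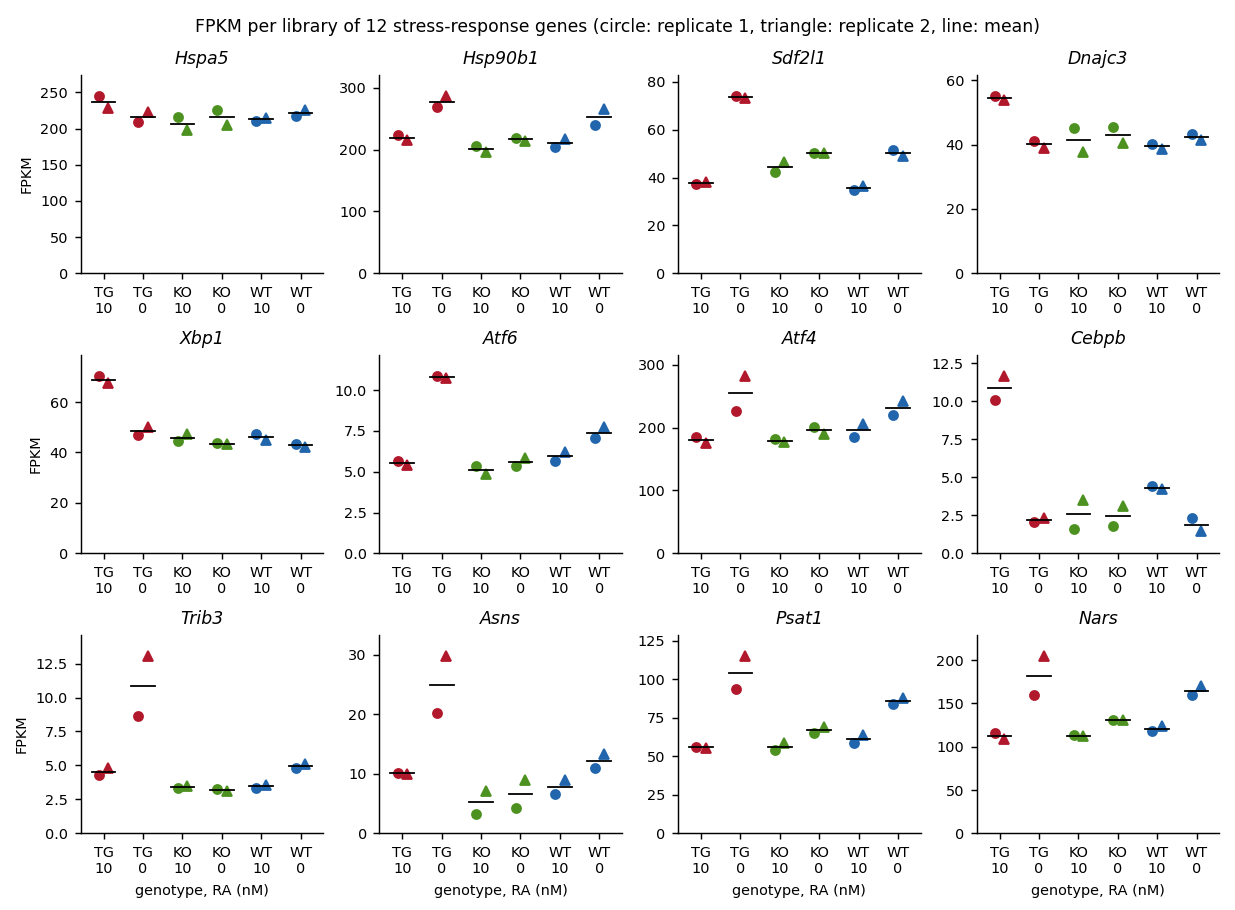
FPKM of 12 of the genes in each library by genotype and RA dose in nM; circles are replicate 1, triangles replicate 2 and lines group means. Xbp1, Dnajc3 and Cebpb were highest in TG with RA, while Sdf2l1, Atf6, Trib3 and Asns were highest in TG without RA.

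In the ATF4 arm, Atf4 itself fell with RA in TG while its partner transcription factors did not move together. Atf4 had 185 and 175 FPKM in TG libraries with RA, against 226 and 282 without. In KO-labelled libraries Atf4 had 182 and 177 FPKM with RA, against 201 and 190.4 without, and in WT libraries 185 and 205 with RA, against 219.9 and 242 without. In every genotype both libraries with RA lay below both without, and the fold change was -0.49 ± 0.10, adjusted p = 0.0056 in TG, -0.24 ± 0.10 in WT (adjusted p = 0.18) and -0.13 ± 0.10 in KO-labelled cells (adjusted p = 0.73). Ddit3, the gene of the pro-apoptotic factor CHOP, had 8.17 and 8.18 FPKM in TG libraries with RA, against 6.69 and 9.17 without. Ddit3 was at 8.31 and 7.94 FPKM in KO-labelled libraries with RA, against 7.08 and 7.81 without, and at 7.53 and 5.91 in WT libraries with RA, against 6.70 and 6.06 without. Ddit3 did not pass anywhere (0.05 ± 0.14 with RA in TG). Its exons overlap those of Mars, on the opposite strand, a gene that reached 91.7 FPKM.

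Trib3, a pseudokinase that ATF4 induces and that feeds back on ATF4 and CHOP, had 4.31 and 4.80 FPKM in TG libraries with RA, against 8.66 and 13.0 without. For Trib3, KO-labelled libraries had 3.36 and 3.46 FPKM with RA, against 3.29 and 3.10 without, and WT libraries 3.36 and 3.55 with RA, against 4.84 and 5.10 without. The TG libraries without RA were the highest, with replicate 2 well above replicate 1, and the KO-labelled libraries all lay between 3.10 and 3.46. Trib3 fell in TG by a log2 fold change of -1.07 ± 0.15 (adjusted p = 0.0006, -0.80 without TG 0 nM replicate 2), and the WT value of -0.42 ± 0.15 did not pass (adjusted p = 0.11).

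Cebpb gave the largest change of all 43 genes. It encodes C/EBPβ, a partner of ATF4 at composite elements that also serves inflammatory and myeloid gene programmes. Cebpb had 10.1 and 11.7 FPKM in TG libraries with RA, against 2.06 and 2.34 without. In KO-labelled libraries Cebpb had 1.62 and 3.51 FPKM with RA, against 1.77 and 3.09 without, and in WT libraries 4.43 and 4.20 with RA, against 2.30 and 1.46 without. The TG libraries with RA were above all others, and WT with RA came next, with both libraries above WT without. The rise in TG was 1.89 ± 0.27 (adjusted p = 0.00072), whereas 0.90 ± 0.27 in WT (adjusted p = 0.071) and 0.03 ± 0.27 in KO-labelled cells did not pass. The TG minus WT difference of 0.99 ± 0.38 did not pass either (adjusted p = 0.17). Dendritic and macrophage markers, cells that also express Cebpb, summed to 28.6 and 40.2 FPKM in TG with RA, against 24.8 and 40.6 without, most of it Cd74. Of these 7 markers Itgax (1.20 and 1.76 FPKM, against 0.0317 and 0.139), Csf1r (0.268 and 0.258 FPKM, against 0.0622 and 0.152) and Adgre1 (0.0550 and 0.0606 FPKM, against 0.0156 and 0.0241) were higher in both TG libraries with RA than in both without. Csf1r and Adgre1 did not reach the level needed for testing. Cd74 (16.0 and 21.8 FPKM, against 15.7 and 26.2), Lyz2, H2-Aa and H2-Ab1 overlapped. The part of such cells in the Cebpb result was not tested. Exons of Cebpb overlap those of Tmem189, which reached 17.6 FPKM, on the opposite strand. Of the other regulators, Atf5 (-0.02 ± 0.09), Cebpg (-0.08 ± 0.06) and the eIF2 phosphatase subunit gene Ppp1r15a (-0.10 ± 0.09) did not pass in TG, in WT or in KO-labelled cells.

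Among the 4 further targets, Chac1, which degrades glutathione, had 1.82 and 1.73 FPKM in TG libraries with RA, against 3.78 and 7.27 without, and fell (-1.18 ± 0.24, adjusted p = 0.0051, -0.78 without TG 0 nM replicate 2). The asparagine synthetase gene Asns had 10.2 and 10.1 FPKM in TG libraries with RA, against 20.2 and 29.8 without. Its log2 fold change of -1.20 ± 0.36 passed (adjusted p = 0.03) but not without TG 0 nM replicate 2 or either TG replicate with RA (-1.47 to -0.93 over the 4). For both genes the TG libraries without RA were the highest of all 12. Ddit4 (0.25 ± 0.14) and Sesn2 (-0.10 ± 0.15), which restrain mTORC1, did not pass.

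Serine and one-carbon enzymes fell in 4 of 5 cases in TG and 2 of 5 in WT, where 19.4% and 3.47% of all tested genes fell. Psat1, the aminotransferase of serine synthesis, had 55.9 and 55.7 FPKM in TG libraries with RA, against 93.5 and 115 without. Psat1 was at 53.9 and 58.5 FPKM in KO-labelled libraries with RA, against 65.3 and 69.1 without, and at 58.7 and 64.1 in WT libraries with RA, against 83.9 and 88.1 without. Both libraries with RA were below both without in each genotype, with -0.88 ± 0.09, adjusted p = 0.00015 in TG, -0.48 ± 0.09, adjusted p = 0.016 in WT and -0.25 ± 0.09 in KO-labelled cells (adjusted p = 0.38). Mthfd2, a mitochondrial folate enzyme, had 43.002 and 40.4 FPKM in TG libraries with RA, against 60.1 and 79.7 without. For Mthfd2, KO-labelled libraries had 38.0 and 40.4 FPKM with RA, against 44.2 and 47.3 without, and WT libraries 40.0 and 46.3 with RA, against 57.2 and 63.5 without. The order of the libraries was like that of Psat1, with -0.72 ± 0.13, adjusted p = 0.0023 in TG and -0.48 ± 0.13, adjusted p = 0.048 in WT, a WT call lost on leaving out each WT library in turn (-0.58 to -0.37). Psat1 in WT ended without either WT replicate at 0 nM or without WT 10 nM replicate 1 (-0.54 to -0.42). Phgdh, the first enzyme of serine synthesis (-0.49 ± 0.08), and Shmt2, a mitochondrial serine hydroxymethyltransferase (-0.37 ± 0.10, -0.24 without TG 0 nM replicate 2), fell in TG. The Shmt2 call ended without TG 0 nM replicate 2 or either TG replicate with RA. Psph, the last enzyme of serine synthesis, did not pass (0.14 ± 0.12), and its exons overlap those of the abundant Cct6a on the opposite strand.

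Of the 8 cytosolic tRNA synthetase genes, 6 fell in TG, where 19.4% of all tested genes fell. Wars rose and Aars did not pass (-0.09 ± 0.07). Iars, for isoleucine, had 54.6 and 52.3 FPKM in TG libraries with RA, against 74.5 and 78.6 without. In KO-labelled libraries Iars had 54.0 and 54.1 FPKM with RA, against 58.5 and 60.7 without, and in WT libraries 58.7 and 61.1 with RA, against 70.4 and 73.0 without. The TG libraries without RA were highest and those with RA among the lowest, with -0.51 ± 0.05, adjusted p = 7.1e-05 in TG and -0.25 ± 0.05, adjusted p = 0.014 in WT. The WT call was lost on leaving out WT 0 nM replicate 2 or WT 10 nM replicate 1. Lars, for leucine, had 51.6 and 51.9 FPKM in TG libraries with RA, against 69.1 and 76.7 without. Lars was at 49.8 and 46.1 FPKM in KO-labelled libraries with RA, against 51.6 and 55.0 without, and at 48.3 and 51.1 in WT libraries with RA, against 63.2 and 62.5 without. Its fold changes were -0.48 ± 0.06, adjusted p = 0.0005 in TG and -0.33 ± 0.06, adjusted p = 0.015 in WT, where the call needed both replicates without RA and WT 10 nM replicate 1. Nars, for asparagine, had 116 and 109 FPKM in TG libraries with RA, against 159.6 and 205 without. For Nars, KO-labelled libraries had 113 and 112 FPKM with RA, against 131 and 130.4 without, and WT libraries 118 and 123 with RA, against 160.1 and 169.8 without. For Nars, too, libraries with and without RA were separate in each genotype, with -0.68 ± 0.10, adjusted p = 0.00086 in TG and -0.44 ± 0.10, adjusted p = 0.027 in WT, a WT call lost without any 1 of these libraries (-0.49 to -0.40). Gars (-0.40 ± 0.07), Sars (-0.34 ± 0.07) and Tars (-0.50 ± 0.10) also fell in TG, with -0.22 for Sars and -0.33 for Tars without TG 0 nM replicate 2.

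Wars was the exception. It charges tryptophan tRNA and is known as an interferon-induced synthetase. Wars had 50.4 and 45.4 FPKM in TG libraries with RA, against 37.4 and 37.6 without. In KO-labelled libraries Wars had 38.5 and 39.7 FPKM with RA, against 35.5 and 34.5 without, and in WT libraries 38.7 and 36.7 with RA, against 35.1 and 33.0 without. All 3 genotypes had both libraries with RA above both without, with 0.34 ± 0.06, adjusted p = 0.0021 in TG, 0.14 ± 0.06 in WT (adjusted p = 0.17) and 0.16 ± 0.06 in KO-labelled cells (adjusted p = 0.39). Irf1, another interferon-responsive gene, had 37.8 and 32.9 FPKM in TG with RA, against 21.3 and 17.3 without. Ifng, the gene of interferon γ, which the culture blocked with antibody, had 0.184 and 0.213 FPKM in TG with RA, against 0.352 and 0.272 without. The part of interferon signalling in the rise of Wars was not tested.

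The ATF4 element, a C/EBP-ATF composite, was searched as TGATGNAAT and, added after the data had been seen, in a shorter form without its last base, TGATGNAA, which every match to the longer form contains. The longer form was present for Aars, Gars and Iars, 8.11% of the 37 genes with a window, against 1.08% of all genes. The shorter form was present for Herpud1, Trib3, Chac1, Asns, Aars, Gars, Iars and Tars, 21.6% of the 37, against 4.51% of all genes. The promoters of Trib3, Asns and Iars are printed as genes that fell with RA in TG and hold a match, with the match in capitals.
Trib3, chr2:152344031-152344310, minus strand: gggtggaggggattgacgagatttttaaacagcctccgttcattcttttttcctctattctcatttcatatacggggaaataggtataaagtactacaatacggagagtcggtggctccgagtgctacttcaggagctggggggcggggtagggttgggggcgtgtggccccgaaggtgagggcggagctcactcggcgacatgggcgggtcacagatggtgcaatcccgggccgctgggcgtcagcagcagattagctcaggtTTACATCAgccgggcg
Asns, chr6:7693180-7693459, minus strand: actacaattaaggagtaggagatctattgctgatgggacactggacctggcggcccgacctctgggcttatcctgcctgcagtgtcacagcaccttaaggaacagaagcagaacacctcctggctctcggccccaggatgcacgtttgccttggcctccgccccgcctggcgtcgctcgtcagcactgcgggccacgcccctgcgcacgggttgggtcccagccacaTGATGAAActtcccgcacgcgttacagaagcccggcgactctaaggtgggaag
Iars, chr13:49681880-49682159, plus strand: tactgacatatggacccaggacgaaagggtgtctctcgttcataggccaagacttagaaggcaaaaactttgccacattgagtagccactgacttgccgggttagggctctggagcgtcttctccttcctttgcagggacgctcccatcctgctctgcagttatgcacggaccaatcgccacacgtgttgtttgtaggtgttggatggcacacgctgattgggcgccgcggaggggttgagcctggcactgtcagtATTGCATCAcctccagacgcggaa
In Trib3 the match lay at 14 to 21, downstream of the start site, in Asns at -23 to -16 and in Iars at 6 to 14 (start base 0). With RA in TG, 2 of the 3 genes with the longer form fell and 0 rose, and of the 34 genes without it 18 fell and 3 rose. For the shorter form, added after the data had been seen, 7 of the 8 genes fell and 0 rose. Of the 29 genes without the shorter form 13 fell and 3 rose.

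**Figure D4:**
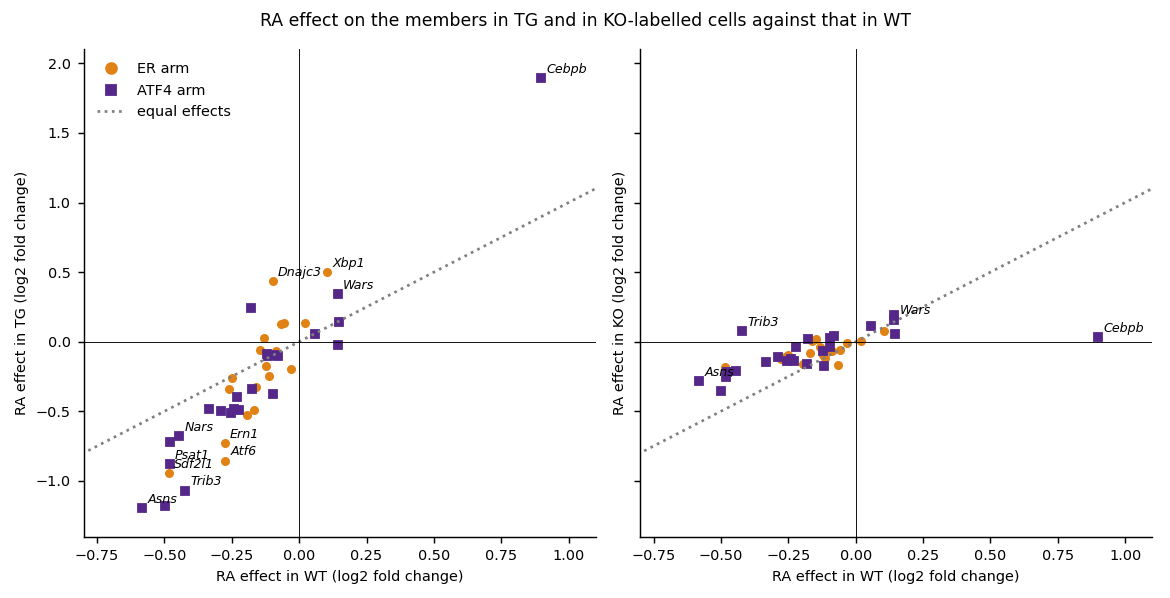
Log2 fold change with RA of each of the 43 genes in TG (left) and KO-labelled cells (right) against that in WT, with circles for the ER arm, squares for the ATF4 arm and a dotted line where the effects are equal. In TG 18 of 24 ATF4-arm genes lay below the line and Cebpb, Xbp1, Dnajc3 and Wars lay above it, and KO-labelled values stayed within -0.35 and 0.19.

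The difference in RA effect between genotypes was tested gene by gene. Between TG and WT it passed for 4 members, all in the ER arm and described above: Sdf2l1 and Atf6 fell more in TG, and Dnajc3 and Xbp1 had the higher log2 fold change in TG. Of all tested genes 4.75% passed upward and 2.73% downward, 7.48% together, a share not far from the 4 of 43 members. In the ATF4 arm 18 of 24 genes had a lower log2 fold change in TG than in WT, and 0 passed. The median difference was -0.17, against -0.034 over all tested genes. With the replicate number as a block 6 members passed, the further ones being Psat1 (-0.40) and Iars (-0.26) of the ATF4 arm. Between KO-labelled cells and WT 0 members passed, where 1 of 11922 genes (0.00839%) did, and 3 members had an unadjusted p under 0.05. With voom 0 members passed either. In the ATF4 arm 21 of 24 genes had a higher log2 fold change with RA in KO-labelled cells than in WT. The median difference of 0.12, against -0.008 over all tested genes, was not tested. The genes of an arm were measured in the same libraries, so such counts are not counts of independent results.

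TG cells were then set against WT at each dose, comparisons that share their libraries with those of RA within TG and within WT. Without RA 5 members were higher in TG, 0 were lower and 38 did not pass, where 2.25% of all genes were higher and 2.06% lower (4.31% together). They were Trib3 (0.96 ± 0.15, adjusted p = 0.011), Sdf2l1 (0.55 ± 0.05, adjusted p = 0.0013), Atf6 (0.49 ± 0.07, adjusted p = 0.0093), Pdia6 (0.36 ± 0.07, adjusted p = 0.028) and Creld2 (0.23 ± 0.05, adjusted p = 0.038). The median log2 difference was 0.18 for the ER arm and 0.15 for the ATF4 arm, against 0.01 over all tested genes. With 1 library left out, at either dose, fewer of all tested genes passed too, so leave-out counts do not by themselves set the members apart. Without TG 0 nM replicate 2 the count was 2, without WT 0 nM replicate 1 it was 1, and without WT 0 nM replicate 2 it was 2. Within males, that is without TG replicate 2, the values were 0.69 for Trib3 and 0.55 for Sdf2l1. With RA, 4 members were higher in TG, 0 lower and 39 not past the test, where 6.84% of all genes were higher and 4.64% lower (11.5% together). They were Cebpb (1.16 ± 0.27, adjusted p = 0.027), Xbp1 (0.57 ± 0.05, adjusted p = 0.00033), Dnajc3 (0.45 ± 0.09, adjusted p = 0.012) and Wars (0.33 ± 0.06, adjusted p = 0.0084). Xbp1 passed whichever library was left out and Cebpb did not pass with any 1 left out, while the count was 1 without TG 10 nM replicate 1 or WT 10 nM replicate 2 and 2 without TG 10 nM replicate 2. The 2 sets, of 5 and 4 genes, had 0 members in common, and sets this small can be expected to share few or none. With RA, Iars was lower in TG under upper-quartile scaling (-0.17) and with the replicate block (-0.16).

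Few members passed between KO-labelled cells and WT. Without RA, Iars was lower (-0.26 ± 0.05, adjusted p = 0.037), the only call among 43, where 1.16% of all genes were higher and 0.579% lower (1.74% together), and it ended without any 1 of the 4 libraries (-0.29 to -0.24). The median difference was -0.19 for the ATF4 arm and -0.07 for the ER arm, with 20 of 24 and 13 of 19 genes lower. Over all tested genes the median was 0.014. The libraries compared here also enter the KO-labelled minus WT difference in RA effect, so the 2 patterns are not independent. With RA, Sdf2l1 was higher (0.31 ± 0.05, adjusted p = 0.04), again the only call, where 0.47% of all genes were higher and 0.411% lower (0.881% together), and it ended without either WT replicate or KO replicate 2 at that dose (0.24 to 0.37).

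The rest of the 2 pathways was read from 10 further lists, also chosen with earlier results of these data known. They held 130 tested genes, of which 15 rose and 55 fell with RA in TG (11.5% and 42.3%). Of all tested genes 19.7% rose and 19.4% fell, the shares to set beside each list below. Bracketed counts below, and others given without TG 0 nM replicate 2, are from the fit without that library. Fewer of all tested genes passed in it, so these shares do not apply to those counts. On the amino acid side 0 rose, and the falls were 9 of 11 tested further ATF4-linked genes (5 without TG 0 nM replicate 2), 9 of 12 further cytosolic tRNA synthetases (7), 5 of 9 amino acid transporters (4, with 1 rise) and 6 of 17 mitochondrial tRNA synthetases (3). Named by their p-values, the falls included the large neutral amino acid transporter subunits Slc7a5 (-0.92 ± 0.10) and Slc3a2 (-0.65 ± 0.07), the cationic transporter Slc7a1 (-0.50 ± 0.08) and the glycine transporter Slc6a9 (-0.64 ± 0.14). Mthfd1l (-0.52 ± 0.04) and Shmt1 (-0.58 ± 0.06) of folate metabolism, Aldh18a1 of proline synthesis (-0.54 ± 0.07) and the stress-induced transcription factor gene Atf3 (-1.04 ± 0.18) fell as well. Slc7a5 had 46.3 and 44.7 FPKM in TG with RA, against 77.5 and 97.1 without. Both TG libraries with RA were the lowest of all 12 for this gene. Among synthetases Cars (-0.67 ± 0.10), Hars (-0.46 ± 0.06), Rars (-0.36 ± 0.04) and Farsb (-0.36 ± 0.05) fell, and in mitochondria Cars2 (-0.46 ± 0.06), Mars2 (-0.42 ± 0.08) and Aars2 (-0.25 ± 0.06).

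Upstream of ATF4, 5 of 12 genes of eIF2 kinases and the exchange factor eIF2B fell and 1 rose (3 and 1 without TG 0 nM replicate 2). The rise was that of Eif2ak4, which encodes GCN2, the kinase that senses uncharged tRNA, at 15.8 and 14.9 FPKM in TG with RA, against 8.03 and 8.52 without (0.82 ± 0.05, limma adjusted p = 9.4e-06). In KO-labelled cells it had 8.32 and 8.68 FPKM with RA, against 7.08 and 6.95 without, and in WT 9.46 and 9.65 with RA, against 7.58 and 7.28 without (0.33 ± 0.05, adjusted p = 0.0080). The libraries with RA were above those without in each genotype. Eif2b5 (-0.35 ± 0.05), Eif2b1 (-0.32 ± 0.05) and Eif2b3 (-0.25 ± 0.06) fell in TG. Cytosolic and mitochondrial heat shock genes fell in 7 of 11 cases and rose in 0, with Hsp90aa1 (-0.56 ± 0.07), Hspa9 (-0.39 ± 0.06), Trap1 (-0.41 ± 0.07) and Hsph1 (-0.27 ± 0.04).

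The ER lists had calls in both directions, as did the whole table, where 19.7% rose and 19.4% fell. Of 16 genes of ER-associated degradation 5 rose and 4 fell with RA in TG (31.2% and 25.0%), of 19 translocon and N-glycosylation genes 3 rose and 4 fell (15.8% and 21.1%), of 14 other folding enzymes 2 rose and 5 fell (14.3% and 35.7%), and of 9 genes of ER to Golgi traffic and its proteases 4 rose and 1 fell (44.4% and 11.1%). Without TG 0 nM replicate 2 these counts were 3 and 3, 2 and 3, 0 and 4, and 2 and 1. Edem1, a mannose-trimming factor of degradation and a known XBP1 target, fell (-0.83 ± 0.07), with 23.3 and 23.4 FPKM in TG with RA, against 40.8 and 43.8 without. Sel1l, the scaffold of the degradation ligase, also fell (-0.34 ± 0.05), whereas the ubiquitin-conjugating enzyme gene Ube2j1 (0.29 ± 0.04) and the lectin gene Os9 (0.26 ± 0.06) rose. Prdx4, an ER peroxiredoxin that supports disulphide formation, gave the largest fold change among the named genes of these 10 lists, at 12.6 and 12.2 FPKM in TG with RA, against 31.5 and 32.5 without (-1.30 ± 0.07), and in WT 15.8 and 16.5 with RA, against 25.9 and 22.9 without (-0.56 ± 0.07). In KO-labelled cells Prdx4 had 15.5 and 15.4 FPKM with RA, against 19.2 and 21.8 without, and did not pass (-0.38 ± 0.07, limma adjusted p = 0.11). The libraries with RA lay below those without in each genotype. Pdia5 (-0.66 ± 0.11), the ER oxidase gene Ero1l (-0.32 ± 0.06), the translocon subunits Sec61b (-0.44 ± 0.07) and Sec61a1 (-0.31 ± 0.07) and the oligosaccharyltransferase gene Stt3b (-0.23 ± 0.04) fell, and the nucleotide exchange factor gene Sil1 (0.29 ± 0.06) and the translocon gene Sec62 (0.23 ± 0.05) rose. In the traffic list the transcription factor gene Creb3l2 (0.59 ± 0.08), the COPII coat gene Sec24d (0.75 ± 0.12) and Mbtps1, whose protease cleaves ATF6 (0.25 ± 0.06), rose, and Creb3 fell (-0.56 ± 0.09).

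**Figure D5:**
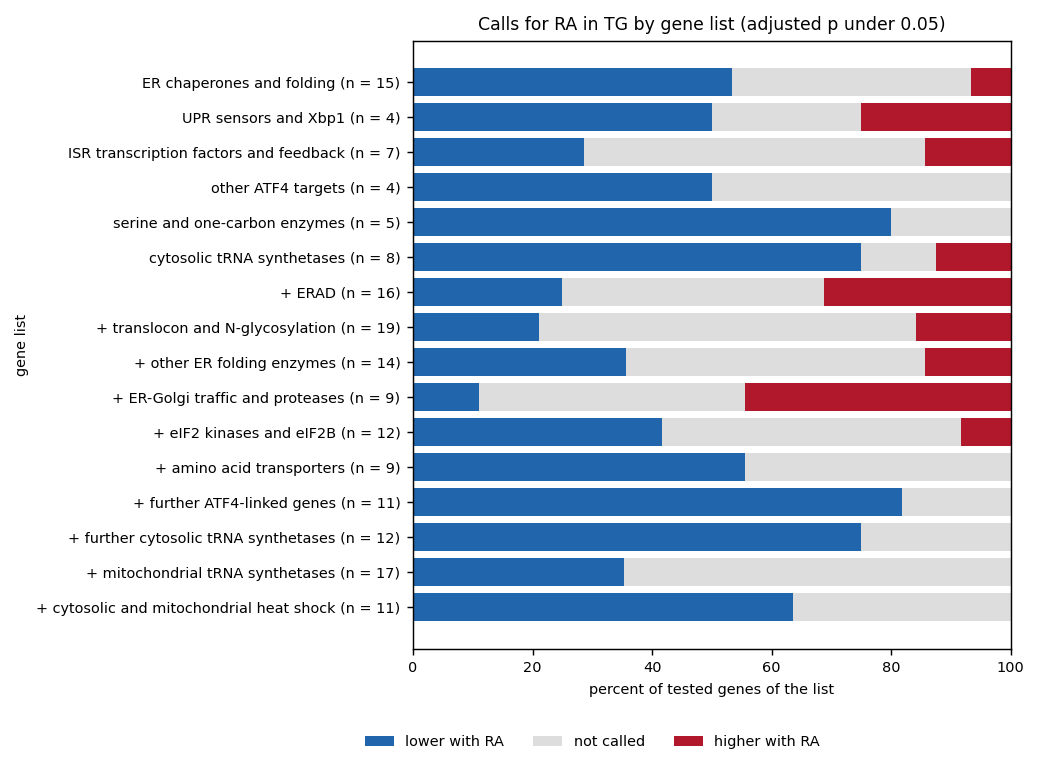
Percent of tested genes in each list that fell (blue), did not pass (grey) or rose (red) with RA in TG, for the 6 member lists and, marked +, the 10 further lists; n is the number of tested genes. Further ATF4-linked genes fell in 9 of 11 cases and rose in 0, while 4 of 9 ER to Golgi genes rose. Of all tested genes 19.4% fell and 19.7% rose.

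In WT 3 of the 130 genes rose and 13 fell (2.31% and 10.0%), where 6.67% of all tested genes rose and 3.47% fell. The heat shock list had 4 falls of 11, the further ATF4-linked list 3 of 11 and the further cytosolic synthetases 2 of 12, with 0 rises in each. The rises were Eif2ak4, 1 gene of ER-associated degradation (Os9, 0.22 ± 0.06, adjusted p = 0.0496) and 1 mitochondrial synthetase. Mthfd1l (-0.27 ± 0.04, adjusted p = 0.0049), Slc7a5 (-0.41 ± 0.10, adjusted p = 0.038) and Edem1 (-0.50 ± 0.07, adjusted p = 0.0035) were among the falls in WT. In KO-labelled cells 0 genes of the 10 lists passed.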

How the data were processed

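Libraries were made with a TruSeq Stranded kit and sequenced as single reads of 100 bp, per the labels' protocols. FPKM values per gene were deposited by the authors for 12 libraries, with STAR, DESeq2, HTSeq 0.6.1 and Trimmomatic 0.32 and the builds GRCm38.p5 and mm10 listed, without settings, in the submitters' processing notes. From these values log2(FPKM + 1) was computed for genes with at least 1 FPKM in at least 2 libraries (11922 of 52635), and limma 3.58.1 in R 4.3.3 fitted 6 group means with a trended prior, 6 residual and 2.51 prior degrees of freedom, and Benjamini-Hochberg adjustment over all tested genes in each of 9 comparisons, two-sided, at 0.05. Fold changes on this scale understate those of low genes. For lack of counts, reads were recovered from the FPKM steps (95.3% to 95.9% of values up to 20 reads within 0.02 of a whole number) for a voom alternative over 11910 genes. Coordinates are those of GENCODE M21, which held 52488 of the 52635 identifiers, and 2 symbols turned into dates were restored. Members and lists were chosen with earlier results of these data known. Values were given per library for the sensors, Hspa5, Atf4 and Ddit3, for members called outside RA in TG and for the 12 smallest p-values in RA in TG, and up to 4 genes per further list were named by p-value. The values of 1 gene that this rule would name are not reported here.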

Additional observations from a re-analysis of the deposited data

Results flagged for a closer look

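4 members had an RA effect that differed between TG and WT by the test of the difference itself in limma. The difference in log2 fold change was -0.46 ± 0.07 for Sdf2l1 (adjusted p = 0.0079) and -0.58 ± 0.10 for Atf6 (adjusted p = 0.011), both of which held without any 1 of the 8 libraries. It was 0.39 ± 0.07 for Xbp1 (adjusted p = 0.016) and 0.53 ± 0.12 for Dnajc3 (adjusted p = 0.035). The Xbp1 call did not hold without WT 0 nM replicate 1, WT 10 nM replicate 2 or TG 10 nM replicate 1. That of Dnajc3 was lost without each of the 8 libraries in turn. In TG both libraries with RA lay below both without for Sdf2l1 and Atf6 and above them for Xbp1 and Dnajc3, and in WT the 2 libraries with RA lay below those without for Sdf2l1, Atf6 and Dnajc3 and above them for Xbp1. Of all tested genes 7.48% passed the same test, a share not far from the 4 of 43 members.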

How the results depend on the processing

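Of the 51 member calls, upper-quartile scaling kept 51, voom on recovered reads 50, a pseudocount of 0.1 in place of 1 50, the test without a filter on low values 40 and the fit of only the libraries compared 32, and 0 changed sign in any setting. With RA in WT the count of 8 members became 4 without the filter, 0 with only the libraries compared and 1 to 4 when 1 replicate was left out. For TG minus WT without RA, 5 became 3 without the filter, 0 with only the libraries compared and 1 to 5 with 1 replicate left out, and with RA 4 became 1 to 3 with 1 replicate left out and 5 with upper-quartile scaling or the block, the further one being a lower Iars. For KO-labelled minus WT without RA, 1 became 0 without the filter, 0 with only the libraries compared, 2 with voom and 0 to 0 with 1 replicate left out, and with RA 1 became 0 with only the libraries compared, 0 with voom and 0 to 1 with 1 replicate left out. The difference in RA effect between TG and WT gave 2 to 8 with 1 replicate left out, and RA in TG 24 to 28. The lone library left in a group is then assumed to vary like the other groups. In each of these comparisons fewer of all tested genes passed with 1 replicate left out. Median log2 fold changes with 1 replicate left out were -0.507 to -0.264 for the ATF4 arm with RA in TG, -0.292 to -0.150 in WT and -0.094 to -0.046 in KO-labelled cells, and -0.113 to -0.001 for the ER arm in KO-labelled cells. With the replicate number as a block 51 of the 51 calls were kept and further ones made. KO-labelled minus WT without RA gave 3 members, and TG minus WT 7 without RA and 5 with RA. The difference in RA effect between TG and WT gave 6 (4 of them lower). Same-numbered libraries of a genotype deviated together (correlation 0.147 to 0.327), and those of different genotypes had correlations of 0.004 to 0.206. Each comparison has only 2 pairs, however, and the labels do not say that a number marks a shared animal or day. Sex transcripts in TG, and dendritic and macrophage markers in WT and KO-labelled cells, did go with the number at both doses. The block fitted a single replicate effect common to all groups, and a fit with pairs within each genotype was not run. Over all genes, fitting only the libraries compared gave 142 calls in place of 1209 for RA in WT, 0 in place of 17 for RA in KO-labelled cells, 47 in place of 514 for TG minus WT without RA and 422 in place of 1369 with RA. For KO-labelled minus WT it gave 26 in place of 207 without RA and 14 in place of 105 with RA. The block gave 73 for RA in KO-labelled cells, 823 for TG minus WT without RA, and 479 and 174 for KO-labelled minus WT without and with RA. Without a filter RA in KO-labelled cells gave 30, and the difference in RA effect between KO-labelled cells and WT gave 21 in place of 1, or 0 with a pseudocount of 0.1 or voom. With 2 libraries per group, changes near the spread between replicates were not detectable.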
